A study of Mus musculus with 9 samples.

Results

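Small intestine of BALB/c mice that had been given 3pRNA before total body irradiation (TBI) was compared with that of mice given TBI alone, over every gene whose mean scaled count across the 6 libraries was at least 10. This rule kept 14148 of the 19360 genes in the table. All mice of the series were irradiated with 9 Gy, and tissue was taken 12 h later for sequencing of poly(A) RNA. The TBI group (n = 3 mice) had no other treatment. The 3pRNA + TBI group (n = 3) had 3pRNA intravenously 24 h before TBI. A further group, 3pRNA + anti-IFNAR1 + TBI (n = 3), also had an antibody against the IFN-α receptor 48 h before TBI, and its levels are given beside the comparison without a test. No unirradiated mice and no mice given the carrier of 3pRNA alone are among these samples, so an effect of the carrier cannot be told apart from one of the RNA. The tissue was bulk small intestine, in which fewer cells of a type and less RNA per cell cannot be told apart.

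3pRNA is an RNA with a triphosphate at its end, which the cytosolic sensor RIG-I (the product of *Ddx58*) recognizes. RIG-I signals through MAVS and induces type I interferons (IFN-I), which bind a receptor containing IFNAR1 on most cells. The signal reaches interferon-stimulated response elements in promoters and turns on genes that block viral replication, present antigen and feed back on the pathway. In the gut the epithelium renews itself from stem cells in the crypts, Paneth cells beside them secrete antimicrobial proteins, and intraepithelial lymphocytes sit between the enterocytes of the villi.

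The libraries held 7571441 to 16322856 reads in genes in the TBI group and 9526537 to 19946586 in the 3pRNA + TBI group. Values are counts divided by a size factor of the library, called scaled counts here, and log2 changes are differences of mean log2(scaled count + 1). The defining genes of small intestine were high in all 6 libraries. The 15 listed enterocyte markers, of which 13 passed the filter on low counts, had a mean log2(scaled count + 1) of 12.8 to 13.4 in TBI and 12.6 to 12.9 in 3pRNA + TBI, and the Paneth cell gene *Lyz1* had a scaled count of at least 14633. TBI replicate 2 stood apart from the other TBI libraries. Its smooth muscle markers averaged 9.58 on the log2 scale against 7.80 and 7.74 in TBI replicates 1 and 3, and 9.74 to 10.1 in 3pRNA + TBI. Its scaled count was more than 2 times that of both other TBI libraries in 2.32% of all genes tested and in 110 of the 497 genes called higher below (22.1%), but in 0 of the 303 called lower. The part of these wall layers in single genes was not tested.

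With limma and a Benjamini-Hochberg adjusted p under 0.05 as the threshold, 497 genes were higher (3.51% of those tested) and 303 lower (2.14%) in 3pRNA + TBI. The directions differed in size. The median log2 change of the genes called higher was 1.34, 334 of them changed by at least 2-fold and 107 by at least 4-fold. The median of those called lower was -0.48, 36 reached 2-fold and 0 reached 4-fold. In each of the 800 called genes the 3 values of one group lay apart from the 3 of the other, which over all genes held for 12.1% in the upward and 13.1% in the downward direction. The calls were made from these same values, so this separation is no further evidence for them. In either direction 5.65% of genes were called. The median gene of all 14148 changed by -0.02, and by 0.09 when the libraries were scaled to equal totals instead, which gave 799 genes higher and 175 lower. The count of calls depended on single mice. Without 3pRNA + TBI replicate 1, 93 genes were called higher and 45 lower, without replicate 2 of that group 364 and 554, and without its replicate 3 100 and 74. Without TBI replicate 1 the counts were 103 and 80, without TBI replicate 2 670 and 183, and without TBI replicate 3 132 and 88.

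**Figure D1:**
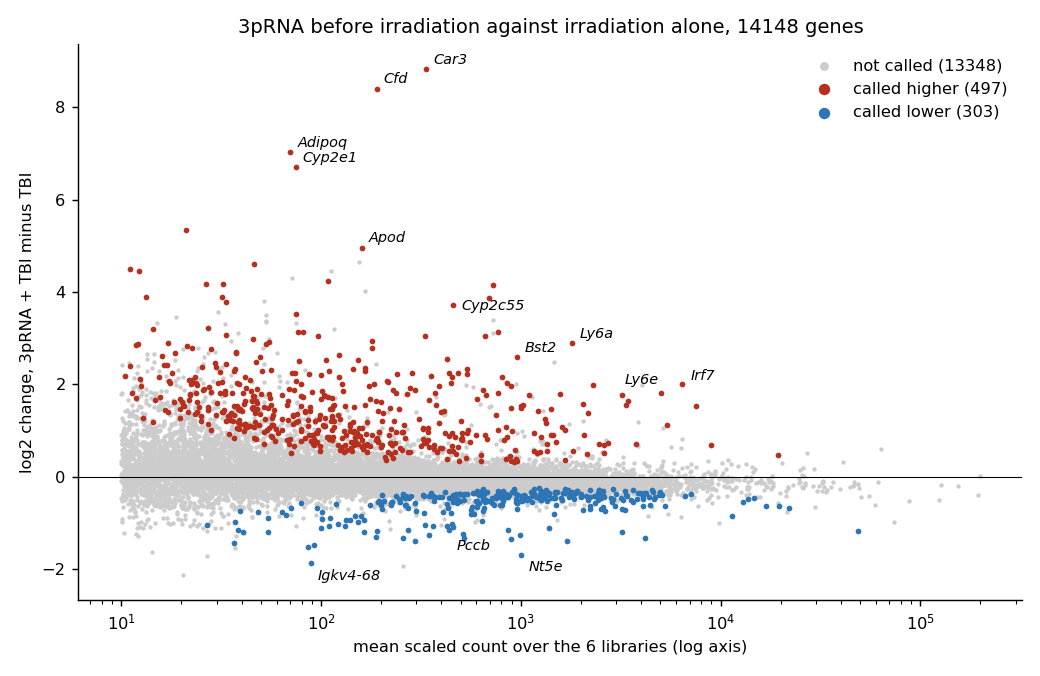
Log2 change between 3pRNA + TBI and TBI (y axis) against the mean scaled count over the 6 libraries (x axis, log scale) for 14148 genes, each point 1 gene. The 497 genes called higher (red) reach a log2 change of 8.82, whereas the 303 called lower (blue) end at -1.88.

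Antiviral effectors were the list with the most genes tested and the most called higher. Of 65 such genes listed, 64 were matched and tested. Of these, 42 were called higher and 0 lower (3.51% and 2.14% over all genes), with a median log2 change of 1.52 (-0.02 over all genes). By share, adipocyte markers (9 of 12) and neuron and glia markers (9 of 13) stood above them. All lists were written with earlier results of these data known. *Ly6e*, a surface protein that restricts entry of some viruses, had scaled counts of 2245, 1956 and 2432 in TBI and 8620, 7322 and 7495 in 3pRNA + TBI (log2 change 1.82, SE 0.10, limma adjusted p = 1.82e-05). *Ly6a*, which encodes Sca-1, rose further, from 501, 290.4 and 522 to 3540, 2650 and 3359 (log2 change 2.90, SE 0.22, limma adjusted p = 0.000187). For *Ifitm3*, whose protein holds virus in endosomes, the TBI libraries had 643, 606 and 901 and the 3pRNA + TBI libraries 2579, 2137 and 2605 (log2 change 1.78, SE 0.14, limma adjusted p = 0.000187). *Bst2*, which encodes tetherin, a protein that retains budding virions, gave 232, 228 and 371 against 1883, 1503 and 1525 (log2 change 2.59, SE 0.24, limma adjusted p = 0.000604). In each of these 4 genes the lowest 3pRNA + TBI mouse was more than 2 times the highest TBI mouse. *Mx1*, a dynamin-like antiviral GTPase, was more uneven among treated mice, with 98.2, 117 and 142 in TBI and 449.7, 281 and 533 in 3pRNA + TBI (log2 change 1.78, SE 0.27, limma adjusted p = 0.00839). The gene listed as *I830012O16Rik*, which RefSeq names *Ifit3b* and which is not among those 64, moved from 40, 42.5 and 52.2 to 327, 275 and 349 (log2 change 2.79, SE 0.22, limma adjusted p = 0.000187), although it resembles *Ifit3* closely and reads may be divided between them. The paralogs *Apol9a* and *Apol9b* had groups that did not overlap but missed the threshold, with log2 changes of 1.72 (SE 0.45, limma adjusted p = 0.0509) and 1.41 (SE 0.42, limma adjusted p = 0.0748), and they too resemble each other. Set against TBI replicate 2 alone, a fit in which 0.417% of all genes were called higher, 16 of the 64 effectors were still called higher, with a median of 1.72. The count of 42 fell to 17 without 3pRNA + TBI replicate 1, to 21 without replicate 3 of that group, to 19 without TBI replicate 1 and to 27 without TBI replicate 3.

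In the mice with IFNAR1 blocked *Ly6e* was at 1567, 1554 and 1367, *Ly6a* at 149, 230.4 and 197 and *Bst2* at 180.0, 212 and 112, below the TBI libraries in each case. Blockade replicate 2 was the highest of its group for several interferon genes, for example *Irf7* (1709, 3785 and 1546) and *Usp18* (106, 315 and 63.9). In both it was above every TBI mouse, whereas the other blocked mice were below every TBI mouse. The same held for *Ddx58* and *Dhx58*.

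Promoters of effectors that moved together were searched on both strands for the core of the interferon-stimulated response element, a GAAA repeated after any 2 bases. The windows run from 250 bases before to 50 bases after the gene start and come from RefSeq on GRCm38.p6, which is not the build of the files. Of all 32851 RefSeq promoters of this length, 3.4% held the core. Of the 42 effectors called higher, 33 had an entry, of which 15 held the core and 18 did not. Of the 16 genes called higher that were named for the largest changes or smallest p, 12 had an entry, of which 2 held it and 10 did not. Both sets had entries for fewer than 80% of their genes, so these shares were not compared with that of all promoters. The promoters of 4 antiviral genes called higher, chosen because they hold it, are shown, with each match in capitals, and that of *Apod*, the gene with the smallest p, which does not. On the opposite strand each GAAA reads TTTC.
Ifit3b: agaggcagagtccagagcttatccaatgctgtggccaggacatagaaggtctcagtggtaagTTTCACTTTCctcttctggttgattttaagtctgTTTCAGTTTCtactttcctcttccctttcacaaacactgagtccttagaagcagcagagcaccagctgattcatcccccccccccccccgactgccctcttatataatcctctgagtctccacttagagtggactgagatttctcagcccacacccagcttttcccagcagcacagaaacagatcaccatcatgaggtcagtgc
Ifitm3: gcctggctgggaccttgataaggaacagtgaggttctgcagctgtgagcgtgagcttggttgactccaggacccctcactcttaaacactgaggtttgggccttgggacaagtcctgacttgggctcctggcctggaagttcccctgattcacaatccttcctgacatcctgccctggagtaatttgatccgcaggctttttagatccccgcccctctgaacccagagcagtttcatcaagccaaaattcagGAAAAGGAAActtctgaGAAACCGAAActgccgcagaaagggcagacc
Bst2: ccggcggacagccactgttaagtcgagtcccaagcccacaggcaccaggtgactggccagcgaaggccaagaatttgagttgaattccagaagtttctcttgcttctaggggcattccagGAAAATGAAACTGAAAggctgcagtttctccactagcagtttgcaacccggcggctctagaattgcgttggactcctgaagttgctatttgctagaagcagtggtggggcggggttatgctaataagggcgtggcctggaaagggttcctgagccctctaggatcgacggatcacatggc
Slfn5: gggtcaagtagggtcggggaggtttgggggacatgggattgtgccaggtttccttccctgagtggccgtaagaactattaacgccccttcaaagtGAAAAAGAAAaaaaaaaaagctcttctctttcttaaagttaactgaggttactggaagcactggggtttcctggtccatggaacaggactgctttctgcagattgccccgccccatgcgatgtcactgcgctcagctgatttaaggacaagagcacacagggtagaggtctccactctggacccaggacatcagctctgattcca
Apod: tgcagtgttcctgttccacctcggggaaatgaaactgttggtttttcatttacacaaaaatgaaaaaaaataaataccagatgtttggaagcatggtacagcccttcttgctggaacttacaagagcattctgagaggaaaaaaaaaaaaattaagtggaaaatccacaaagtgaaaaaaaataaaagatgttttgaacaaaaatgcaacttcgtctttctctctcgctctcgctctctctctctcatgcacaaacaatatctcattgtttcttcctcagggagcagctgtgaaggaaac

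The promoter of *Ifit3b* lies at chr19:34607707-34608006 on the plus strand and holds 2 matches on the opposite strand, the first ending 179 bases before the start. That of *Ifitm3* (chr7:141010695-141010994, minus strand) has 2 matches, the first beginning 2 bases past the start. In *Bst2* (chr8:71537423-71537722, minus strand) 2 matches overlap, and the first begins 130 bases before the start. *Slfn5* (chr11:82951852-82952151, plus strand) holds 1 match, next to a run of A, and encodes a schlafen protein with scaled counts of 211, 109 and 203 in TBI and 759, 755 and 881 in 3pRNA + TBI (log2 change 2.25, SE 0.24, limma adjusted p = 0.00138). The window of *Apod* is chr16:31314759-31315058 on the minus strand. *Bst2*, *Slfn5* and *Apod* were added to this set after their values were seen. Among the genes with the largest changes or smallest p, *Ly6e*, *Ly6a*, *Car3* and *Hand1* had no entry in the promoter table. A match describes these letters only, and binding was not measured.

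**Figure D2:**
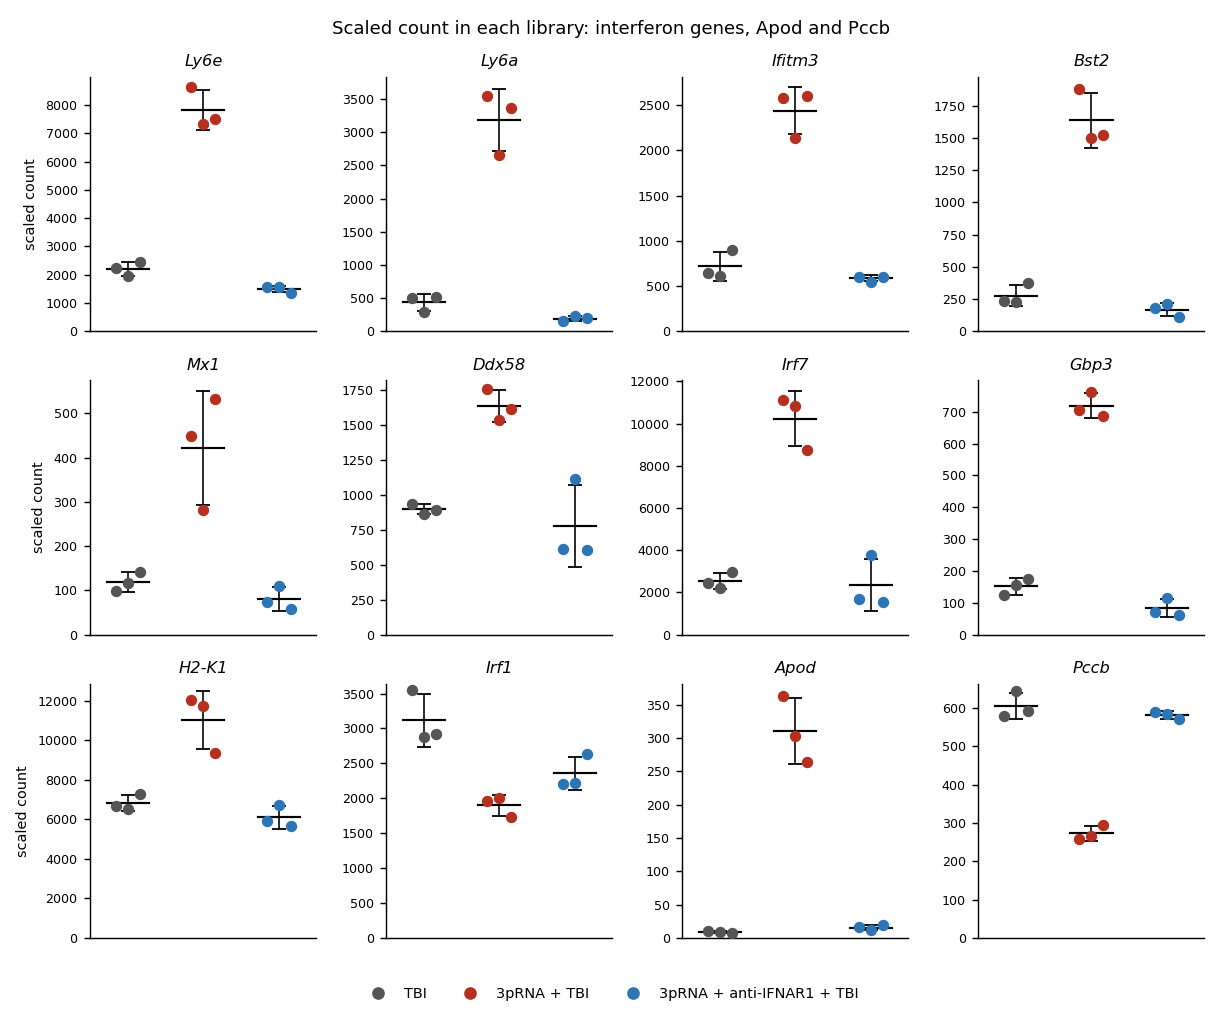
Scaled count (y axis, linear, from 0) of 12 genes in the 9 libraries, each point 1 mouse, with the mean (line) and SD (bar) of each group. In 3pRNA + TBI 10 of the genes lie above and *Irf1* and *Pccb* lie below all TBI mice, and *Pccb* is at 571 to 590 with IFNAR1 blocked against 579 to 644 in TBI.

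Guanylate-binding proteins and immunity-related GTPases, which attack the vacuoles of intracellular pathogens, followed the effectors, with 7 of 15 called higher (2 without 3pRNA + TBI replicate 1 or replicate 3, 3 without TBI replicate 3, 4 without TBI replicate 2), 0 lower and a median log2 change of 1.04. *Gbp3* had 124, 155 and 175 in TBI and 705, 763 and 687 in 3pRNA + TBI (log2 change 2.25, SE 0.20, limma adjusted p = 0.000604). *Gbp9* rose from 92.4, 57.7 and 99.8 to 234, 187 and 320.4, *Irgm1* from 1196, 818 and 1058 to 2031, 1801 and 1817 and *Gbp4* from 158, 119 and 155 to 291, 217 and 406, with limma adjusted p of 0.00752, 0.0201 and 0.0219. Members of this family are close in sequence, so a part of these reads may be shared. Among 17 sensors of RNA and DNA, 4 were higher and 0 lower, with a median of 0.35. Beside both lists, 3.51% of all genes were called higher and 2.14% lower. The 4 calls fell to 0 without TBI replicate 1, TBI replicate 3 or 3pRNA + TBI replicate 1, and to 1 without TBI replicate 2 or 3pRNA + TBI replicate 3. *Dhx58*, which encodes the RIG-I-like receptor LGP2, showed the largest change of them, 156, 144 and 173 against 708, 529.9 and 636 (log2 change 1.97, SE 0.38, limma adjusted p = 0.0207). *Ddx58* itself had 934, 861 and 894 in TBI and 1755, 1532 and 1617 in 3pRNA + TBI (log2 change 0.86, SE 0.19, limma adjusted p = 0.031). The other two were *Eif2ak2* (PKR, a kinase that stops translation), with a log2 change of 0.71, and *Ikbke* (IKKε, a kinase that activates IRF3), with 0.35.

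Genes of interferon signaling and its feedback were mostly not called, beside 3.51% called higher and 2.14% called lower over all genes. Of 23 tested, 2 were higher and 1 lower, and the median was -0.04 (0.08 with equal totals). The higher ones were *Irf7*, the transcription factor that amplifies IFN-I production, with 2468, 2199 and 2971 against 11109, 10840 and 8762 (log2 change 2.01, SE 0.28, limma adjusted p = 0.00564), and *Usp18*, a protease that removes ISG15 and dampens the receptor, with 202, 156 and 206 against 1038, 721 and 889 (log2 change 2.22, SE 0.44, limma adjusted p = 0.0226). *Irf1*, a transcription factor of the same family, went the other way, from 3548, 2875 and 2926 to 1967, 2009 and 1727 (log2 change -0.71, SE 0.11, limma adjusted p = 0.00818). With IFNAR1 blocked *Irf1* was at 2211, 2220 and 2634, also below every TBI mouse.

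The 2 classes of antigen presentation genes were called mostly in opposite directions, beside 3.51% of all genes called higher and 2.14% called lower. Of 22 genes of MHC class I and peptide loading, 6 were higher and 1 lower, with a median log2 change of 0.27. The 6 calls fell to 1 without 3pRNA + TBI replicate 1, to 2 without TBI replicate 1 or TBI replicate 3 and to 3 without TBI replicate 2. The classical gene *H2-K1* had 6672, 6546 and 7304 in TBI and 12042, 11726 and 9357 in 3pRNA + TBI (log2 change 0.68, SE 0.11, limma adjusted p = 0.0129), and the nonclassical *H2-T22* had 519.6, 413 and 541 and 990.3, 825 and 776 (log2 change 0.82, SE 0.13, limma adjusted p = 0.00874). *Tapbpl*, which encodes the peptide editor TAPBPR, was the member called lower, with 838, 727 and 785 against 576, 559.5 and 527 (log2 change -0.50, SE 0.10, limma adjusted p = 0.0236). Of 11 genes of MHC class II, 0 were higher and 8 lower, with a median of -0.59. *Ciita*, the coactivator that drives class II transcription, had 635, 365 and 474 in TBI and 210.2, 295 and 193 in 3pRNA + TBI (log2 change -1.06, SE 0.23, limma adjusted p = 0.0294). *Cd74*, the invariant chain, fell from 21989, 20348 and 19165 to 14091, 15229 and 10664 (log2 change -0.64, SE 0.14, limma adjusted p = 0.0284), and *H2-Ab1* from 5697, 5188 and 4997 to 3713, 4126 and 2741 (log2 change -0.60, SE 0.13, limma adjusted p = 0.0314). The class II calls also depended on single mice, and 0 of the 8 passed without TBI replicate 1, without TBI replicate 3, without 3pRNA + TBI replicate 1 or without 3pRNA + TBI replicate 3. Without TBI replicate 2 or blockade replicate 1, 5 passed, and without blockade replicate 3, 4. H2 genes are polymorphic and alike, and BALB/c reads were aligned to a reference of another strain, so levels of single H2 genes are uncertain.

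Most chemokines and cytokines did not pass the threshold, which 3.51% of all genes passed upward and 2.14% downward. Of 22 chemokines 2 were higher and 1 lower. *Cxcl10*, which attracts T cells through CXCR3, varied several fold within the treated group, with 40.7, 17 and 60.3 in TBI and 200.4, 83.5 and 517 in 3pRNA + TBI (log2 change 2.53, SE 0.58, limma adjusted p = 0.0345). *Ccl11*, the eosinophil chemoattractant eotaxin, had 143, 110.4 and 132 against 175, 214 and 196 (log2 change 0.61, SE 0.16, limma adjusted p = 0.0497). Among 20 cytokine and NF-κB feedback genes the one called was *Il18bp*, the secreted antagonist of IL-18, at 359, 328 and 371 in TBI and 547, 486 and 521 after 3pRNA (log2 change 0.55, SE 0.10, limma adjusted p = 0.0182). Of 17 complement genes 5 were higher and 0 lower, with a median of 0.64, and 2 were higher without TBI replicate 1, TBI replicate 3 or 3pRNA + TBI replicate 1 and 3 without 3pRNA + TBI replicate 3. *Serping1*, the C1 inhibitor, rose from 535, 479 and 593 to 1022, 972 and 1460 (log2 change 1.08, SE 0.15, limma adjusted p = 0.00558) and the classical pathway component *C4b* from 492, 351 and 560.3 to 1151, 1081 and 1714 (log2 change 1.48, SE 0.21, limma adjusted p = 0.0065). *C2* and *C1ra*, also of the classical pathway, had log2 changes of 0.80 and 0.97. The fifth, *Cfd*, is a complement protease made by fat cells and is described with them. With IFNAR1 blocked *Serping1* was at 572, 469 and 511 and *C4b* at 499.9, 336 and 411.

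Single genes were called in the next 3 lists, beside 3.51% of all genes called higher and 2.14% called lower. *Saa3*, an acute-phase protein, was the only one of 21 secreted defense genes called, with 73.5, 114 and 129 in TBI and 368, 288 and 448 in 3pRNA + TBI (log2 change 1.81, SE 0.24, limma adjusted p = 0.00467). *Ly6g*, best known as a neutrophil surface protein, rose from 11.6, 8.49 and 12.8 to 98.8, 134 and 183 (log2 change 3.52, SE 0.33, limma adjusted p = 0.000638), the only call among 6 neutrophil markers. The granule genes *S100a8* and *S100a9*, named after their values were seen, overlapped between groups, with 4.37, 22.1 and 13.9 against 14.2, 6.51 and 45 and 13.8, 32.3 and 36 against 45.4, 11.8 and 94.4. *Ly6c1*, which was placed in the stem cell list although it is a surface protein of endothelial and immune cells, moved from 65.5, 59.4 and 85.8 to 307, 210.2 and 320.4 (log2 change 1.97, SE 0.19, limma adjusted p = 0.000669). *Ly6a*, *Ly6c1*, *Ly6e* and *Ly6g* belong to 1 family, and its closest members may exchange reads. *Fcgr1*, the high-affinity IgG receptor, was the only one of 16 macrophage and dendritic cell markers called, with 35.7, 25.5 and 23.2 against 51.6, 60.4 and 69.1 (log2 change 1.09, SE 0.25, limma adjusted p = 0.0352).

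Markers of T cells and intraepithelial lymphocytes were called in the downward direction only. Of 21 markers tested 8 were called lower and 0 higher (2.14% and 3.51% over all genes), with a median log2 change of -0.77. *Ccl5*, a chemokine stored by effector T cells, had 368, 391 and 342 in TBI and 198, 132 and 121 in 3pRNA + TBI (log2 change -1.32, SE 0.16, limma adjusted p = 0.00311). *Itgae*, the CD103 chain that anchors these cells to E-cadherin, fell from 201, 207 and 201 to 124, 93.5 and 92.2 (log2 change -0.98, SE 0.14, limma adjusted p = 0.00624), *Gzma*, a granule protease, from 521, 784 and 566 to 356, 266 and 250.2 (log2 change -1.09, SE 0.17, limma adjusted p = 0.00988), and *Cd8a* from 156, 190.2 and 205 to 109, 85.9 and 92.2 (log2 change -0.93, SE 0.15, limma adjusted p = 0.0122). Between 5 and 8 of these markers were called lower with any 1 library left out, and 5 without TBI replicate 3 or without 3pRNA + TBI replicate 1. The γδ receptor segment *Tcrg-C2* was among the 12 largest decreases, at 46.6, 47.5 and 66.1 against 30.3, 16.6 and 13.2 (log2 change -1.44, SE 0.30, limma adjusted p = 0.0268), and resembles other constant segments. *Klrk1*, the NKG2D receptor, was a member that went up, from 11.6, 6.79 and 6.96 to 28.5, 20.1 and 29.6, without passing (limma adjusted p = 0.0596). It was named after its values were seen. Of 18 B and plasma cell markers 15 had a positive change, with a median of 0.51 that ranged from 0.05 without 3pRNA + TBI replicate 3 to 1.07 without TBI replicate 3. The one called, *Prdm1*, the regulator Blimp-1, was lower, with 467, 559 and 565 against 337, 395 and 273 (log2 change -0.67, SE 0.13, limma adjusted p = 0.0219). Immunoglobulin segment *Igkv4-68* had the largest decrease of the genes called, 106, 205 and 110.2 in TBI and 49, 24.3 and 38.4 in 3pRNA + TBI (log2 change -1.88, SE 0.41, limma adjusted p = 0.0302), and belongs to a multigene family.

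Genes of purine nucleoside handling were called in both directions, beside 3.51% of all genes called higher and 2.14% called lower. Of 25 genes 5 were lower and 2 higher, and 3 were lower without TBI replicate 1, 3pRNA + TBI replicate 1 or 3pRNA + TBI replicate 3. *Nt5e*, which encodes CD73, the enzyme that makes extracellular adenosine, had 1289, 2073 and 1245 in TBI and 366, 637 and 418 in 3pRNA + TBI (log2 change -1.70, SE 0.22, limma adjusted p = 0.00413). *Ada*, which deaminates adenosine, went from 5930, 6843 and 5138 to 2088, 2504 and 2566 (log2 change -1.32, SE 0.14, limma adjusted p = 0.00146), and *Slc28a2*, a concentrative purine nucleoside transporter, from 2030, 2742 and 2632 to 784, 1054 and 982 (log2 change -1.39, SE 0.13, limma adjusted p = 0.000669). *Pnp*, purine nucleoside phosphorylase, and *Gda*, guanine deaminase, had smaller log2 changes of -0.53 and -0.48. The ectonucleotidase *Entpd3* and the equilibrative transporter *Slc29a1* were the members called higher, with 1.71 and 0.53. With IFNAR1 blocked *Ada* was at 4781, 4177 and 5932, *Slc28a2* at 2062, 2318 and 2264 and *Nt5e* at 1096, 986 and 1122. *Nt5e* was thus below every TBI mouse, as were *Pnp* (683, 783 and 873) and *Gda* (11650, 12570 and 13914). *Entpd3* (11.8, 14.6 and 5.18) and *Slc29a1* (205, 171 and 178) were above every TBI mouse.

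Some of the calls with the smallest p lay outside these lists. *Apod*, a lipocalin that binds lipids, had the smallest p of all genes, with 10.2, 8.49 and 8.12 in TBI and 363, 303 and 264 in 3pRNA + TBI (log2 change 4.96, SE 0.23, limma adjusted p = 5.9e-06). It was at 16.5, 11.5 and 19 with IFNAR1 blocked. *Pccb*, the β subunit of the mitochondrial propionyl-CoA carboxylase, had the smallest p among lower genes, with 579, 644 and 592 against 258, 266 and 294 (log2 change -1.15, SE 0.08, limma adjusted p = 0.000116). The most abundant gene called lower, named after its values were seen, was *Sepp1*, which encodes the selenium carrier selenoprotein P. It had 62433, 84357 and 56986 in TBI, 31826, 36457 and 22004 in 3pRNA + TBI and 58635, 55156 and 49905 with IFNAR1 blocked (log2 change -1.19, SE 0.21, limma adjusted p = 0.017). *Bmp8b*, a ligand of the BMP family, fell from 124, 126 and 132 to 42.7, 48 and 41.7 (log2 change -1.51, SE 0.15, limma adjusted p = 0.000857). *Slc6a18*, a neutral amino acid transporter, fell from 349, 559 and 392 to 143, 173 and 166 (log2 change -1.40, SE 0.17, limma adjusted p = 0.0027), the only call among 25 amino acid and peptide transporters (2.14% of all genes were called lower). A pair of genes known by codes had similar changes, *2010107G12Rik* with 1388, 1426 and 1360 against 585, 529.9 and 634 (log2 change -1.26, SE 0.12, limma adjusted p = 0.000609) and *Gm14085* with 583, 835 and 814 against 253, 325 and 304 (log2 change -1.33, SE 0.14, limma adjusted p = 0.00137). *2210407C18Rik* and *Apol10a* completed the largest decreases, with log2 changes of -1.35 and -1.47. With IFNAR1 blocked *Bmp8b* (95.3, 90.7 and 70.8) and *2010107G12Rik* (802, 893 and 1125) were below every TBI mouse. *Pccb* (590, 584 and 571) and *Gm14085* (648, 665 and 718) overlapped the TBI mice.

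**Figure D3:**
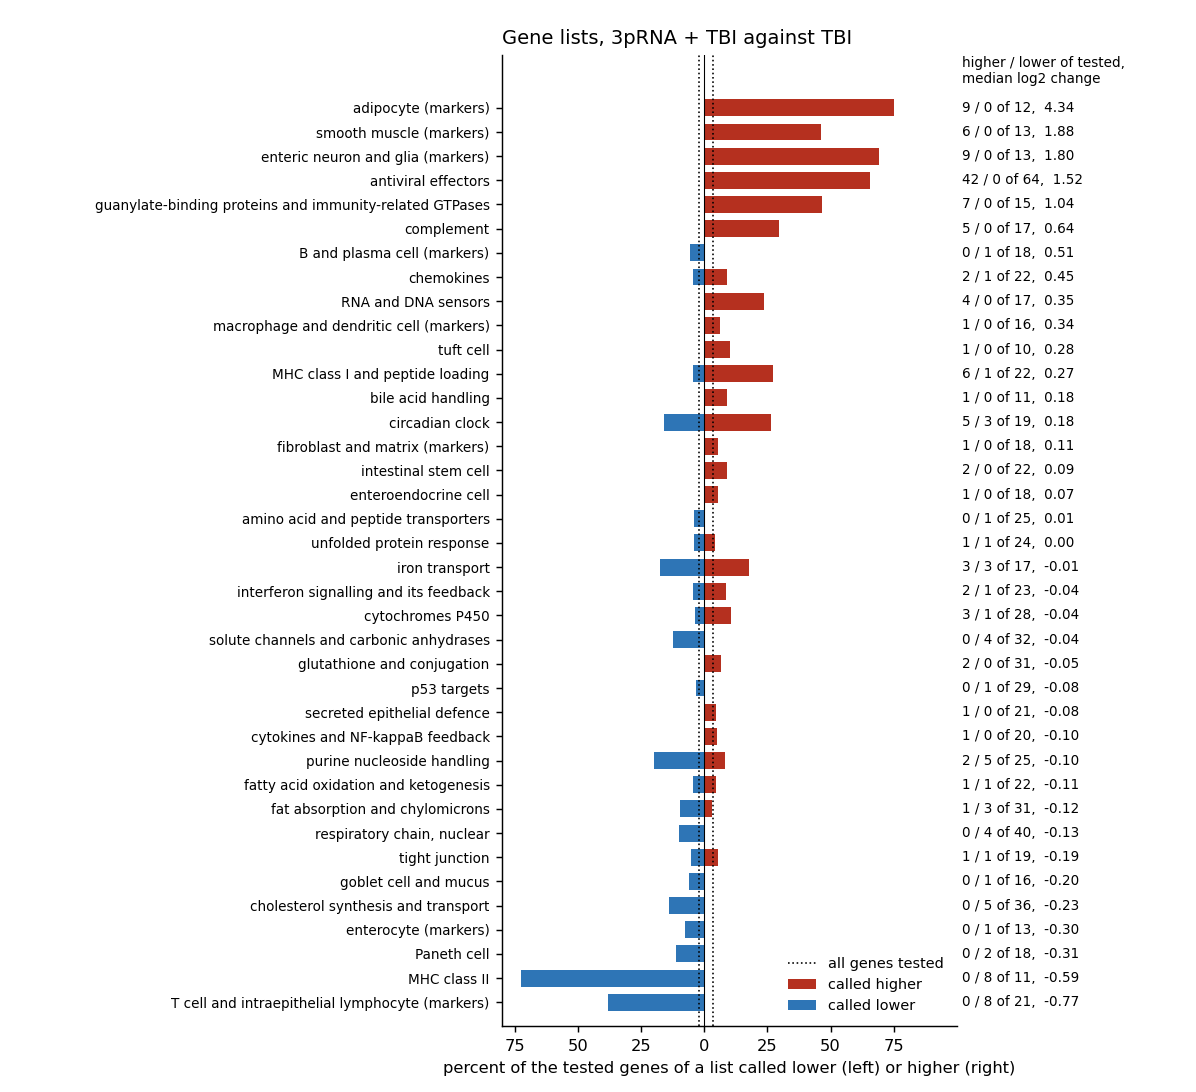
Share of the tested genes of each list called lower (blue, left) or higher (red, right), for lists with at least 10 genes tested and at least 1 call, ordered by median log2 change. Dotted lines mark 2.14% lower and 3.51% higher over all genes, and the column at the right gives the counts and the median, from 4.34 for adipocyte markers to -0.77 for T cell markers.

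Most genes of secretory cells were not called, beside 3.51% of all genes called higher and 2.14% called lower. Of 18 Paneth cell genes 2 were lower and 0 higher, the median log2 change was -0.31, and 17 of the 18 had a negative change. The median of all genes was -0.02, and 0.09 with equal totals, so this count of signs depends on the scaling. With any 1 library left out the count called lower ranged from 0 (without TBI replicate 1, for example) to 3. *Lyz1*, lysozyme, had 25647, 22978 and 22744 in TBI and 15272, 14633 and 15862 in 3pRNA + TBI (log2 change -0.64, SE 0.13, limma adjusted p = 0.0229). *Mptx2*, a mucosal pentraxin of Paneth cells, had 1518, 1229 and 864 against 557, 411 and 627 (log2 change -1.16, SE 0.23, limma adjusted p = 0.0224). Of 16 goblet cell and mucus genes, with a median of -0.20, 1 was lower, *Spink4*, a protease inhibitor, with 3731, 4272 and 4420 against 2501, 2656 and 2390 (log2 change -0.72, SE 0.09, limma adjusted p = 0.00331). Of 10 tuft cell and 18 enteroendocrine genes 1 each was higher and 0 lower, with medians of 0.28 and 0.07. The antimicrobial lectin *Reg3g* overlapped between groups, at 134505, 128508 and 168151 in TBI and 102499, 75345 and 134100 in 3pRNA + TBI (log2 change -0.50, SE 0.29, limma adjusted p = 0.35). *Itgb6*, the integrin β6 chain of damaged epithelium, also overlapped, at 900.1, 1304 and 1093 against 761, 905 and 684 (log2 change -0.48, SE 0.14, limma adjusted p = 0.0655).

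For the crypt compartment few differences were detected, beside 3.51% of all genes called higher and 2.14% called lower. Among 22 stem cell genes 2 were called, *Ly6c1* (above) and *Smoc2*, with 209.6, 323 and 212 against 342, 368 and 452 (log2 change 0.66, SE 0.17, limma adjusted p = 0.0498), and TBI replicate 2 was again the highest of its group for *Smoc2*. *Lgr5*, the receptor that marks crypt base stem cells, had 105, 69.6 and 91.6 in TBI and 61.4, 91.2 and 86.7 in 3pRNA + TBI (log2 change -0.15, SE 0.20, limma adjusted p = 0.706). Of 37 cell cycle and replication genes 0 were called by limma in either direction, and their median was -0.10 (0.015 with equal totals). At an unadjusted p under 0.05 limma gave 2 higher and 1 lower, and with voom weights 0 were called. The most abundant of them, *Top2a* and *Ccnd2*, had log2 changes of -0.17 (SE 0.13) and 0.11 (SE 0.14). Of 29 p53 targets only *Ddit4*, an inhibitor of mTORC1, was called, with 715, 679 and 718 against 473, 391 and 415 (log2 change -0.73, SE 0.09, limma adjusted p = 0.00414), and it was at 396, 447 and 469 with IFNAR1 blocked. Within the unfolded protein response list *Ddit3* (CHOP) was higher, 109.9, 100.2 and 119 against 242, 199 and 170.1 (log2 change 0.87, SE 0.15, limma adjusted p = 0.0152), and *Atf3* lower, 489, 628 and 593 against 379, 378 and 449 (log2 change -0.50, SE 0.12, limma adjusted p = 0.0381). The other 22 members tested were not called.

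Genes of absorption and metabolism were mostly not called, beside 3.51% of all genes called higher and 2.14% called lower. Of 36 genes of cholesterol synthesis and transport 5 were lower and 0 higher (median -0.23), namely *Tm7sf2*, *Idi1*, *Nsdhl*, *Pmvk* and *Mvd*, all enzymes of the synthesis pathway, with log2 changes of -0.43 to -0.66. The 5 fell to 1 without TBI replicate 1, 2 without TBI replicate 3 and 3 without 3pRNA + TBI replicate 1. *Tm7sf2*, a sterol reductase, had 649, 745 and 733 in TBI and 495, 493 and 476 in 3pRNA + TBI (log2 change -0.54, SE 0.09, limma adjusted p = 0.0122). Of 40 nuclear genes of the respiratory chain 4 were lower, with log2 changes of -0.28 to -0.36, and 35 of 40 had a negative change (median -0.13). These 4 calls fell to 0 or 1 with any 1 of the 9 libraries left out. With equal totals 0 of these and 1 of the cholesterol genes were called lower by limma. Equal totals moved the median of all genes from -0.02 to 0.09, so counts of signs depend on the scaling. *Cox4i1*, a subunit of complex IV, had 4243, 4566 and 4490 against 3705, 3205 and 3481 (log2 change -0.36, SE 0.08, limma adjusted p = 0.0303). In fat absorption 3 of 31 were lower (1 without TBI replicate 1 or 3pRNA + TBI replicate 1), among them *Npc1l1*, the cholesterol uptake protein of the brush border, with 14319, 17556 and 14476 against 10874, 11707 and 9113 (log2 change -0.55, SE 0.12, limma adjusted p = 0.0331), and *Apoc2*, a cofactor of lipoprotein lipase, with 187, 341 and 278 against 116, 84.1 and 119 (log2 change -1.31, SE 0.22, limma adjusted p = 0.0139). With IFNAR1 blocked *Apoc2* was at 125, 120 and 89.7, also below every TBI mouse. The fatty acid translocase *Cd36*, which fat cells also express, was called higher, with 65.5, 32.3 and 70.8 against 234, 389.6 and 199.7 (log2 change 2.29, SE 0.54, limma adjusted p = 0.0358). In fatty acid oxidation 1 of 22 was higher (*Acadl*, log2 change 0.52) and 1 lower (*Slc25a20*, -0.48). Of 21 disaccharidase and sugar transporter genes limma called 0, with 0 higher and 2 lower at an unadjusted p under 0.05 and 0 called with voom weights. *Sis*, sucrase-isomaltase, had 35515, 47610 and 25466 in TBI and 50810, 58442 and 28757 in 3pRNA + TBI, with more spread within groups than between them.

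Metal transport genes were called in both directions, beside 3.51% of all genes called higher and 2.14% called lower. Of 17 genes in the iron list 3 were higher and 3 lower. Without TBI replicate 1 or 3pRNA + TBI replicate 1, 0 were higher, and without TBI replicate 3 or 3pRNA + TBI replicate 3, 1. Without 3pRNA + TBI replicate 1, 1 was lower. *Slc40a1*, the iron exporter ferroportin, had 883, 709.8 and 955 in TBI and 396, 484 and 424 in 3pRNA + TBI (log2 change -0.96, SE 0.16, limma adjusted p = 0.0121), and *Slc46a1*, which carries folate and heme, had a log2 change of -0.88. *Slc39a4*, the third of the lower ones, takes up zinc rather than iron, with 3662, 3977 and 4289 against 2371, 2640 and 2306 (log2 change -0.70, SE 0.11, limma adjusted p = 0.0081). The higher ones were the metal-binding protein *Mt1*, with 627, 582 and 603 against 1410, 1243 and 978 (log2 change 0.99, SE 0.19, limma adjusted p = 0.0206), the metalloreductase *Steap4*, with a log2 change of 1.34, and transferrin (*Trf*), with 1.52. Of 32 solute channel and carbonic anhydrase genes 4 were lower and 0 higher, led by the bicarbonate cotransporter *Slc4a4*, with 5011, 5235 and 4697 against 3174, 3614 and 2932 (log2 change -0.62, SE 0.10, limma adjusted p = 0.0122), and including the phosphate transporter *Slc34a2*, the anion exchanger *Slc26a6* and the glycerol channel *Aqp7* (log2 changes -0.85, -0.48 and -1.07). Of these 4, 0 were called without 3pRNA + TBI replicate 1, 1 without TBI replicate 1 or 3pRNA + TBI replicate 3 and 2 without TBI replicate 2 or TBI replicate 3. In tight junctions *Cldn12* was lower (-0.36), and the member called higher, *Mylk*, is also a smooth muscle gene.

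Most detoxification genes were not called, and the medians of the P450 and conjugation lists were -0.04 and -0.05. Over all genes 3.51% were called higher and 2.14% lower. *Cyp2c55*, a cytochrome P450 of the intestine, spanned a wide range, with 134, 50.9 and 17.4 in TBI and 590.4, 1638 and 302 in 3pRNA + TBI (log2 change 3.72, SE 0.79, limma adjusted p = 0.0278), and 888, 179 and 361 with IFNAR1 blocked. *Cyp3a25* and *Cyp1b1* were also higher (1.07 and 0.91), whereas *Cyp51*, an enzyme of cholesterol synthesis, was lower (-0.38), so that 3 of 28 P450 genes rose and 1 fell. Without TBI replicate 3 or 3pRNA + TBI replicate 1, 0 P450 genes were called higher, and without 3pRNA + TBI replicate 2, 1. The glutathione transferase *Gstm3* rose from 45.8, 22.1 and 20.9 to 118, 125 and 116 (log2 change 2.07, SE 0.28, limma adjusted p = 0.00554), and *Gstm1* had a log2 change of 0.89, the 2 calls among 31 conjugation genes. *Abcc2*, an apical exporter of conjugates, was the one call among 11 bile acid genes, with 941, 1090 and 531 against 1800, 2052 and 1628 (log2 change 1.15, SE 0.24, limma adjusted p = 0.0267).

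The circadian clock list was called in both directions, with 5 of 19 genes higher and 3 lower. The repressor *Nr1d1* (REV-ERBα) had 55.3, 143 and 67.3 in TBI and 328, 529.9 and 324 in 3pRNA + TBI (log2 change 2.23, SE 0.34, limma adjusted p = 0.00836). *Ciart*, another repressor of the clock, had 5.09, 6.79 and 4.64 against 28.5, 23.7 and 38.4 (log2 change 2.25, SE 0.35, limma adjusted p = 0.0086), and the output factor *Dbp* 75.7, 122 and 60.3 against 226, 309.7 and 267 (log2 change 1.68, SE 0.30, limma adjusted p = 0.0159). *Hlf*, a factor related to *Dbp*, and *Per3*, a period gene, had log2 changes of 1.48 and 0.96. The lower genes were the activator *Arntl* (BMAL1), with 294, 188 and 309.7 against 145, 111 and 91.1 (log2 change -1.17, SE 0.30, limma adjusted p = 0.0459), *Nfil3*, which opposes *Dbp* at shared sites, with 232, 202 and 247 against 114, 90.6 and 93.3 (log2 change -1.19, SE 0.21, limma adjusted p = 0.0162), and *Cry1* (log2 change -0.54). *Per2* and *Cry2* are also in the list and were not called. With IFNAR1 blocked *Nr1d1* was at 427, 273 and 239.9, *Dbp* at 379.9, 220.0 and 174, *Arntl* at 72.9, 112 and 171 and *Nfil3* at 61.2, 96.9 and 117, outside the range of the TBI libraries in each case. TBI replicate 2 was the highest TBI library for *Nr1d1* and *Dbp* and the lowest for *Arntl* and *Nfil3*. Without TBI replicate 1, without TBI replicate 3 or without 3pRNA + TBI replicate 3, 2 clock genes were called higher and 0 lower. The hour of the day at which each mouse was sampled is not given in the sources used here.

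**Figure D4:**
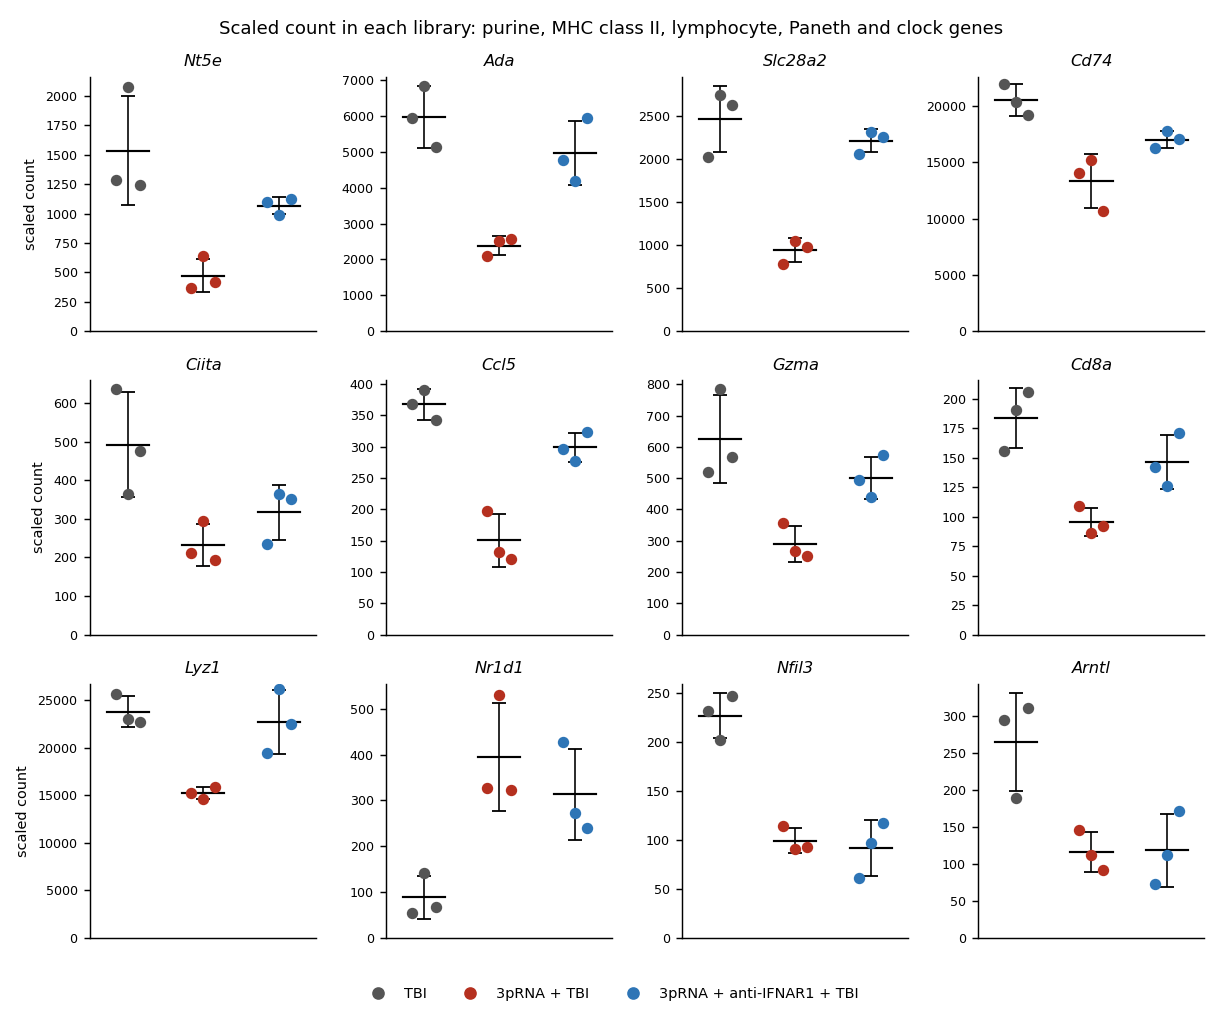
Scaled count (y axis, linear, from 0) of 12 genes in the 9 libraries, each point 1 mouse, with the mean (line) and SD (bar) of each group. *Nr1d1* is higher and the other 11 genes are lower in 3pRNA + TBI than in every TBI mouse, and with IFNAR1 blocked *Nfil3* remains at 61.2 to 117 whereas *Slc28a2* is at 2062 to 2318.

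Most of the 12 largest increases were genes of fat or of the outer gut wall. Of 12 adipocyte markers tested 9 were higher and 0 lower (3.51% and 2.14% over all genes), with a median log2 change of 4.34 (3.57 with genes at 0 in all TBI libraries set to their bound). *Cfd*, *Adipoq* (adiponectin), *Plin1* (the perilipin coating lipid droplets), *Lep* (leptin) and *Retn* (resistin) were at 0 in all 3 TBI libraries. These genes and *Car3* passed the filter on low counts only through the 3pRNA + TBI libraries. They could therefore not be called lower, and the count of 9 includes them. *Cfd* had 344, 611 and 183 in 3pRNA + TBI, at least 357-fold higher than the level of 3 reads over the TBI group, and *Adipoq* had 126, 214 and 81.2, at least 132-fold higher. *Car3*, a carbonic anhydrase of fat and muscle, had 1 read in the TBI group and 467, 1188 and 359 in scaled counts after 3pRNA, a ratio of reads of 2170 (exact 95% interval 389 to 85700, counting error only). *Cyp2e1*, also with 1 read in TBI, gave a ratio of 489 (87.4 to 19300). *Plin4* and *Thrsp*, both lipid genes, had 3.64, 67.9 and 2.32 against 169, 226 and 181 and 0.728, 5.09 and 1.16 against 43.6, 63.4 and 45. With IFNAR1 blocked *Cfd* was at 498, 0 and 65.6 and *Adipoq* at 205, 0 and 27.6, so that blockade replicate 2 was like the TBI mice and replicate 1 like the 3pRNA mice. The 13 genes of the adipocyte list averaged 2.96 to 3.35 on the log2 scale in TBI, 6.56 to 7.60 in 3pRNA + TBI, and 7.46, 3.46 and 5.86 in the blocked mice.

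Smooth muscle markers were higher in 6 of 13 genes tested, with a median log2 change of 1.88, and neuron and glia markers in 9 of 13, with a median of 1.80. *Lmod1*, a leiomodin of smooth muscle, had 76.4, 348 and 62.6 in TBI and 494, 533 and 617 in 3pRNA + TBI (log2 change 2.19, SE 0.50, limma adjusted p = 0.0332), and *Acta2*, smooth muscle actin, 811, 2185 and 907 against 2974, 2830 and 3359 (log2 change 1.38, SE 0.32, limma adjusted p = 0.0339). *Hand1* and *Gdf10*, among the 12 largest increases, were at 0 in TBI replicates 1 and 3 and at 35.7 and 28.9 in TBI replicate 2, against 68.6, 81.1 and 93.3 and 55.2, 58.6 and 51.6 in 3pRNA + TBI. *Ckm*, a creatine kinase of skeletal muscle, had 1.46, 28.9 and 0 and 49.9, 51.5 and 69.1. In all of these TBI replicate 2 lay between the other TBI mice and the treated ones. Set against TBI replicate 2 alone, the smooth muscle median was 0.36, that of neuron and glia 0.83 and that of adipocytes 3.62, and 0 markers of these lists were called by limma. With any 1 library left out the smooth muscle count ranged from 0 (without TBI replicate 1, TBI replicate 3, 3pRNA + TBI replicate 1 or 3pRNA + TBI replicate 3) to 12 (without TBI replicate 2), and it was 1 without 3pRNA + TBI replicate 2, 2 if blockade replicate 3 was omitted and 3 if blockade replicate 1 was. The 9 neuron and glia calls fell to 0 without 3pRNA + TBI replicate 1, to 1 without TBI replicate 1, TBI replicate 3 or 3pRNA + TBI replicate 3 and to 3 without 3pRNA + TBI replicate 2 or blockade replicate 3, whereas 0 adipocyte markers passed without TBI replicate 1, TBI replicate 3, 3pRNA + TBI replicate 1 or 3pRNA + TBI replicate 3, and 3 without 3pRNA + TBI replicate 2. The mesothelium gene *Upk3b* was at 0, 93.4 and 0 in TBI and 57.9, 32.6 and 128 in 3pRNA + TBI, and was not called. In other compartments 1 of 18 fibroblast and matrix genes (*Dcn*, log2 change 0.55) and 0 of 13 endothelial genes were called by limma (2 higher and 1 lower at an unadjusted p under 0.05, and 0 with voom weights). The part of tissue makeup in the genes of other lists was not tested.

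**Figure D5:**
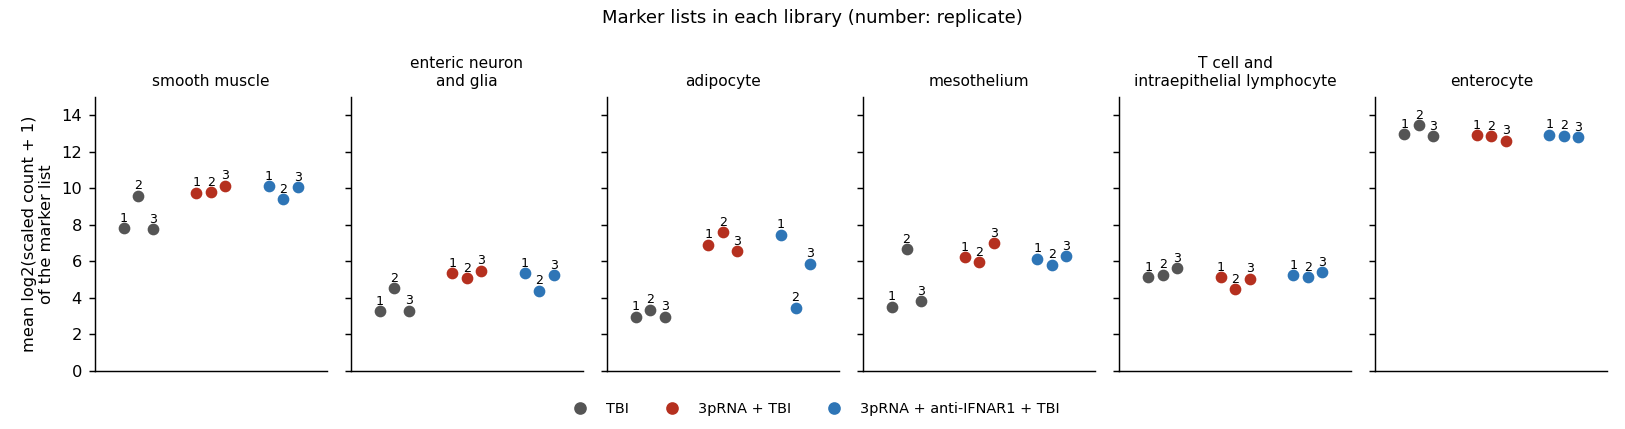
Mean log2(scaled count + 1) of 6 marker lists (y axis) in each of the 9 libraries, with the replicate number above each point. Smooth muscle, neuron and mesothelium markers of TBI replicate 2 sit near the treated libraries (smooth muscle 9.58 against 9.74 to 10.1), whereas adipocyte markers are at 2.96 to 3.35 in all TBI libraries.

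A few remaining calls came from lists of other cell types, beside 3.51% of all genes called higher and 2.14% called lower. *Hbb-bs*, a β globin chain of red cells, was lower, with 99.7, 54.3 and 75.4 against 29.4, 32.6 and 32.9 (log2 change -1.21, SE 0.30, limma adjusted p = 0.0459), and *Rbp2*, the retinol-binding protein of enterocytes, had 4386, 5498 and 4434 against 3803, 3163 and 3201 (log2 change -0.49, SE 0.11, limma adjusted p = 0.0298), the only call among 13 enterocyte markers. *Ptgs1*, a cyclooxygenase of tuft cells, had a log2 change of 0.67 and *Scg3*, a granin of endocrine and nerve cells, of 1.14. Neither acinar markers (3 tested, *Zg16* and *Clps* the most abundant) nor *Kit* were called. With 3 mice a group an exact permutation test cannot give a p under 0.10, so the calls on single genes rest on the spread that limma shares across genes.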

How the data were processed

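Poly(A) RNA of small intestine was sequenced on a HiSeq2500. The authors aligned with 2-pass STAR, counted with HTSeq, divided by DESeq size factors and added 1, and this scaled count is the deposited signal. The processing notes name mm9, and no source used here gives the gene models or strand. Tables of the authors' own comparisons (log2 ratios, p-values and means) were not used. Without strand, overlapping and antisense genes cannot be told apart. Near-identical copies may share reads.

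Here 1 was subtracted, and each value was then a whole multiple (tolerance 0.02) of the value of 1 read in its library. Of 19360 genes, 42 were at 0 in all libraries, and 12 symbols had become dates. The 9 libraries entered 1 limma fit (limma 3.58.1, R 4.3.3, variance trend) of log2(scaled count + 1) over 3 groups, with a pseudocount of 1, a minimum mean of 10 over 6 libraries, and Benjamini-Hochberg adjustment over 14148 genes at 0.05. This scale understates the change of low genes. The filter kept genes from *Gm10425* (mean 10.0014) upward and left out *Pde11a* (9.9998). P-values measure the spread between these samples. The fit was first tested on simulated data with these means.

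The 48 gene lists (1033 distinct genes) and the members were chosen with earlier results of these data known. Named genes are the 12 largest changes in each direction among called genes without overlap, up to 4 called genes per list by p (or the 2 most abundant), the 5 smallest p in each direction, and genes the study names. Others were chosen after their values were seen. Some of these are marked so where they appear. The rest are further called members of their lists, namely *C1ra*, *Mvd*, *Arntl*, *Cry1*, *Per3*, *Hlf*, *Entpd3*, *Slc29a1*, *Gda*, *Trf* and *Slc46a1*. Tried as alternatives were pseudocounts of 0.5 and 4, other low-value filters, equal totals, stricter thresholds, no trend, robust moderation, the replicate number as a block, only 6 libraries, each library left out, TBI replicate 2 alone, and voom weights on recovered reads, the last added after seeing the data. Planned count tests and TMM scaling were not run, although whole reads could be recovered from the values. RefSeq promoters were found for 74.6% of genes tested, under the 80% needed, so the planned comparison of motif shares between gene sets is void. The antibody was given intravenously by the labels and intraperitoneally by the study's methods.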

Additional observations from a re-analysis of the deposited data

How the results depend on the processing

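Of the 120 genes named by the rule and called, 25 were called in the same direction under all 23 alternatives that gave them a value, among them *Apod*, *Ly6e*, *Ly6a*, *Ifitm3*, *Bst2*, *Irf7*, *Gbp3*, *Pccb*, *Nt5e*, *Ada*, *Slc28a2*, *Ccl5* and *Gzma*, and 38 under the omission of any of the 9 libraries. None of the 120 changed sign under any of them. The counts of genes higher and lower moved by more than 1.5 times with equal library totals (799 and 175), with only the 6 libraries in the fit (321 and 134), without a variance trend (153 and 70), at an adjusted p under 0.01 (67 and 29) and with TBI replicate 2 as the only TBI library (59 and 42, where that library is assumed to vary like the other groups). A 2-fold limit left 334 and 36. Over the omissions of 1 library the counts ranged from 93 to 670 higher and from 45 to 554 lower, and without 3pRNA + anti-IFNAR1 + TBI replicate 3, which enters only the shared spread, 353 and 201 were called. These fits have fewer samples. With the replicate number as a block 643 were higher and 581 lower. Same-numbered TBI and 3pRNA + TBI libraries deviated with correlations of -0.06, 0.285 and 0.348, and same-numbered 3pRNA + TBI and blockade libraries with 0.075, 0.349 and 0.288. TBI replicates 2 and 3 correlated best with the same number of 3pRNA + TBI, and TBI replicate 1 with its replicate 2 (0.137). The study states no pairing, so the main fit has no block, and whether the numbers mark pairs was not tested. The block ended the call of 1 named gene, *Ccl11*. Pseudocounts of 0.5 and 4, no filter, other filters, robust moderation and voom weights (634 and 363) stayed within 1.5 times. Genes that were not called changed sign in a few fits. With TBI replicate 2 as the only TBI library the log2 change was -0.57 for *Upk3b*, 0.052 for *Top2a*, -0.11 for *Sis*, 0.17 for *Lgr5* and -0.41 for *S100a8*. Over the omissions of 1 library, *Ccnd2* ranged from -0.016 (without 3pRNA + TBI replicate 2) to 0.188, *Lgr5* from -0.314 to 0.023 (without 3pRNA + TBI replicate 1), *S100a8* from -0.20 (without 3pRNA + TBI replicate 3, and -0.09 without TBI replicate 1) to 1.11 and *S100a9* from -0.11 (without 3pRNA + TBI replicate 3) to 1.34. With equal totals the medians of 12 lists near 0 changed sign, those of cell cycle, p53 target and purine genes among them. The cause of these shifts was not tested. The planned count tests and TMM scaling were not run. The comparison of motif shares, with its stricter motif and its 2-fold gene set, is void for want of promoter entries and is not reported.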

Other observations

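With 3 mice a group, 3141 genes had an unadjusted limma p under 0.05 and 800 of the 14148 tested were called. The shallowest library of the contrast held 7571441 reads in genes, in which 1 read was worth a scaled count of 1.70, so values of a few counts rest on few reads. No mice without irradiation were compared here, and the levels with IFNAR1 blocked were given without a test.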
